A study of Mus musculus with 4 samples.

Results

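The clustered protocadherin genes encode cadherin-like adhesion proteins of the neuronal cell surface and lie in 3 neighbouring groups, Pcdha, Pcdhb and Pcdhg, on mouse chromosome 18. The members were all genes of the mm9 annotation (GENCODE vM1) on this chromosome with a name starting in Pcdha, Pcdhb or Pcdhg, which gave 25 of 37310 annotated genes. GENCODE vM1 combines most alternative first exons of the alpha group into the gene Pcdha11 and those of the gamma group into the gene Pcdhgc5, with 10 transcripts each. The 47 member transcripts were therefore described by their 41 separate 5' ends, called starts below and named after their transcripts, with 10 starts in the alpha, 22 in the beta and 9 in the gamma group. In mm9, the alpha group spans positions 37089939 to 37347311 of chromosome 18, the beta group 37424652 to 37681073 and the gamma group 37833989 to 38001527, all transcribed from the plus strand.

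Each variable alpha or gamma first exon carries its own promoter and encodes the extracellular, transmembrane and proximal cytoplasmic part of a protein, while shared constant exons downstream encode the rest. Beta genes are complete in 1 long exon. Neurons choose few of these promoters each, in part at random, which gives neighbouring cells different surface identities, and methylation of a promoter is known to go with its silence and to keep the insulator protein CTCF from its binding site. C-type first exons at the 3' ends of the alpha and gamma groups are used more constantly than the others.

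CpG methylation was measured by RRBS-seq, which sequences bisulfite-treated MspI fragments, in WT mouse ES cells and in ES cells that lack the Chr4-cl, a cluster of KRAB zinc finger protein (KRAB-ZFP) genes on chromosome 4. Both genotypes were grown in serum containing media with LIF or for 1 week in 2i media with Vitamin C, a condition known to lower DNA methylation, which gave 4 libraries with 1 library per condition: WT serum, WT 2i + Vitamin C, Chr4-cl KO serum and Chr4-cl KO 2i + Vitamin C. Chr4-cl KO cells came from B6;129 Gt(ROSA)26Sor tm1(cre/ERT)Nat/J mice and carry the cre/ERT allele by origin. The paper names no separate origin for the WT cells. It describes picking single clones of both genotypes after the CRISPR/Cas9 step, so genotype and clone cannot be told apart. No value has a replicate, and an SD given below is over CpG sites or over starts within 1 library.

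Read counts at CpG sites summed to between 42684672 and 90649194 per library, and 591877 to 816807 sites reached 10 reads, the minimum used for every level. Chr4-cl KO 2i + Vitamin C was the shallowest library, with a median coverage of 25 reads at these sites against 42 to 50 in the others. The files of WT serum and Chr4-cl KO 2i + Vitamin C were each made of a pair of joined tables, so these kinds of file are confounded with any difference of genotype that changes with the medium. Only 59 and 54 sites of the second tables reached 10 reads. Without the second tables the member levels, differences and numbers of called sites were unchanged, so these tables did not enter them. Whether the joined files differ in another way was not tested. Over the 400195 sites covered in all 4 libraries, mean methylation was 27.4% in WT serum, 30.5% in Chr4-cl KO serum, 13.9% in WT 2i + Vitamin C and 12.2% in Chr4-cl KO 2i + Vitamin C. The promoters of 4 genes that mark ES cells and passed the minimum of 5 sites, from a list of 6, had a median methylation of 2.84% in WT serum and 1.79% in Chr4-cl KO serum, and those of genes that mark other cell types, from a list of 9, had 5.77% over 5 genes and 12.4% over 6. Between the serum libraries, Sox17 passed the minimum only in that of Chr4-cl KO cells. Over shared sites, the median KO minus WT difference in serum was 0.372 points for the 4 ES cell genes. It was 3.45 points for 5 genes of other cell types and 1.20 points for all genes.

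The windows of the 41 starts, taken as 1 kb to either side of the 5' end and the whole first exon, held 4273 CpGs, of which 333 in WT serum, 424 in WT 2i + Vitamin C, 354 in Chr4-cl KO serum and 388 in Chr4-cl KO 2i + Vitamin C reached 10 reads. At least 1 covered site was present at 27, 28, 26 and 32 of the starts in these libraries in the same order, and at least 5 sites at 19, 25, 20 and 26. No library covered a site at 8 starts, namely Pcdha11-205, Pcdhb6, Pcdhb8, Pcdhb9, Pcdhb11, Pcdhb12, Pcdhb13 and Pcdhb20, whose windows held a median of 3.5 MspI sites against 6 at the other starts. Pcdha11-206, Pcdha11-207, Pcdhb4, Pcdhb10 and Pcdhb19 were covered only in Chr4-cl KO 2i + Vitamin C, the shallowest library, and Pcdhb14 only in WT 2i + Vitamin C. Of the 550 sites covered in any library, 103 had surrounding bases (41 bp, with C read as T) that recur exactly elsewhere in the cluster, 59 of them among the 143 beta sites, so reads at these sites could stem from more than 1 gene.

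In WT serum, the member sites had a mean methylation of 22.8%, with a counting error of 0.715 percentage points (95% half-width, reads only). Over the sites covered in each group, it was 41.2% at 60 beta sites, 26.4% at 99 alpha sites and 14.3% at 174 gamma sites. The groups were covered in different regions, since 42 of the beta sites but 33 of the alpha sites lay in the first exon beyond 1 kb and no beta site lay upstream. Beyond 1 kb, alpha was above beta in all 4 libraries, with 59.4% and 37.8% in WT serum, while within the first 1 kb beta was above alpha there, with 49.2% and 12.0%. In Chr4-cl KO serum, the means over all sites of each group were 48.9% in beta, 35.7% in alpha and 17.8% in gamma, and the mean over all member sites was 29.9%. In WT 2i + Vitamin C the means were 11.7% in beta, 8.01% in alpha and 4.11% in gamma, and in Chr4-cl KO 2i + Vitamin C 6.41%, 6.44% and 2.37%. The gamma group was thus lowest in all 4 libraries, and beta and alpha had nearly equal values in Chr4-cl KO 2i + Vitamin C, where the counting error over all member sites was 0.631 points. That library covered other sites, with 112 in beta compared with 60 in WT serum. Over sites covered in all 4 libraries, beta was above alpha there, with 10.1% at 46 sites and 6.35% at 75 sites.

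Sites of high and low methylation were unevenly spread over the groups. In WT serum, 138 of 174 gamma sites (79.3%) were methylated under 20% and 3 at 80% or more, while 17 of 60 beta sites (28.3%) were under 20% and 11 (18.3%) at 80% or more. Sites between 20 and 80% made up 53.3% of beta, 37.4% of alpha and 19.0% of gamma sites in that library. In Chr4-cl KO serum, the sites at 80% or more numbered 20 of 106 in alpha (18.9%), compared with 7 of 99 (7.07%) in WT serum. No member site was at 80% or more in either 2i + Vitamin C library.

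**Figure D1:**
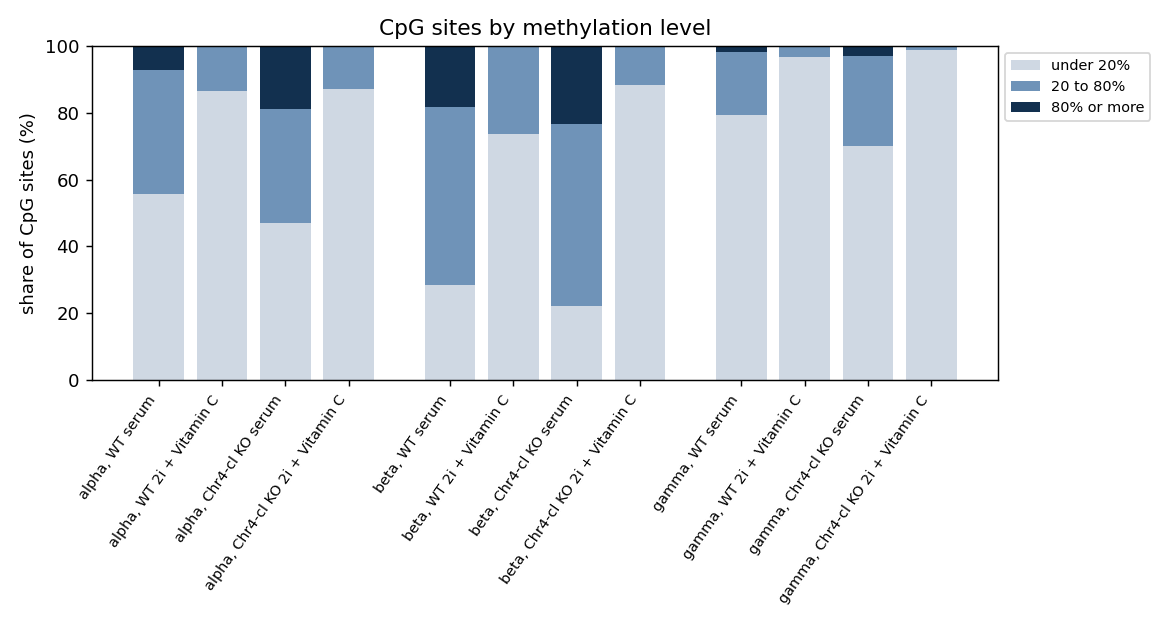
Share of CpG sites (%, y axis) with at least 10 reads that were methylated under 20%, between 20 and 80%, or at 80% or more, for each protocadherin group and library (x axis, 1 bar each). The dark segment for sites at 80% or more is seen only in the serum libraries, with 18.3% of beta sites in WT serum and 23.4% in Chr4-cl KO serum.

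In serum, methylation over all member sites rose with distance up to 2000 bp downstream of the start. Further downstream it was lower again in WT cells and higher in Chr4-cl KO cells. Upstream of the starts, where only alpha and gamma sites within 500 bp were covered, 22 sites in WT serum had a mean of 1.53% and 30 sites in Chr4-cl KO serum 2.95%. In WT serum these were 13 alpha and 9 gamma sites, and most of the alpha sites lay at Pcdha11-201. No alpha start before Pcdha11-201 had a covered upstream site, so these means do not describe the starts in general. Within the first 500 bp downstream, the means were 7.70% at 118 sites in WT serum and 14.2% at 125 sites in Chr4-cl KO serum. Between 500 and 1000 bp they were 23.9% and 34.3%, between 1000 and 2000 bp 39.2% and 45.3%, and further downstream 35.5% and 50.7%. In 2i + Vitamin C, the profile was flatter, with 1.95% upstream and 9.71% between 1000 and 2000 bp in WT and 0.867% and 7.37% in Chr4-cl KO cells. Different starts contribute to each bin, so these means do not follow a single exon.

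The profile differed between the 3 groups. In alpha, the part of the first exon beyond 1 kb reached 59.4% in WT serum and 77.4% in Chr4-cl KO serum, compared with 12.0% and 23.7% in the first 1 kb. In gamma, the values were 27.6% and 35.1% beyond 1 kb and 5.22% and 8.75% within it. Gamma sites in WT and Chr4-cl KO serum were at 32.6% and 40.2% between 1000 and 2000 bp, but at 16.3% and 21.8% further downstream. In beta, methylation was 23.2% at 10 sites in the first 500 bp and 81.8% at 8 sites between 500 and 1000 bp in WT serum, and 40.05% and 87.0% in Chr4-cl KO serum. Beyond 1 kb, beta was lower again, at 37.8% and 43.1% in the serum libraries, and it had no covered site upstream of its starts. Outside all windows, CpG sites of the 3 spans had a mean of 37.8% in WT serum and 43.9% in Chr4-cl KO serum. The values were 17.5% for WT 2i + Vitamin C and 16.5% for Chr4-cl KO 2i + Vitamin C. The WT serum mean combined 39 alpha sites at 62.5%, 116 gamma sites at 28.1% and 5 beta sites at 68.4%. Such alpha and gamma sites can lie within the gene models Pcdha11 and Pcdhgc5, so these values are not levels between genes.

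**Figure D2:**
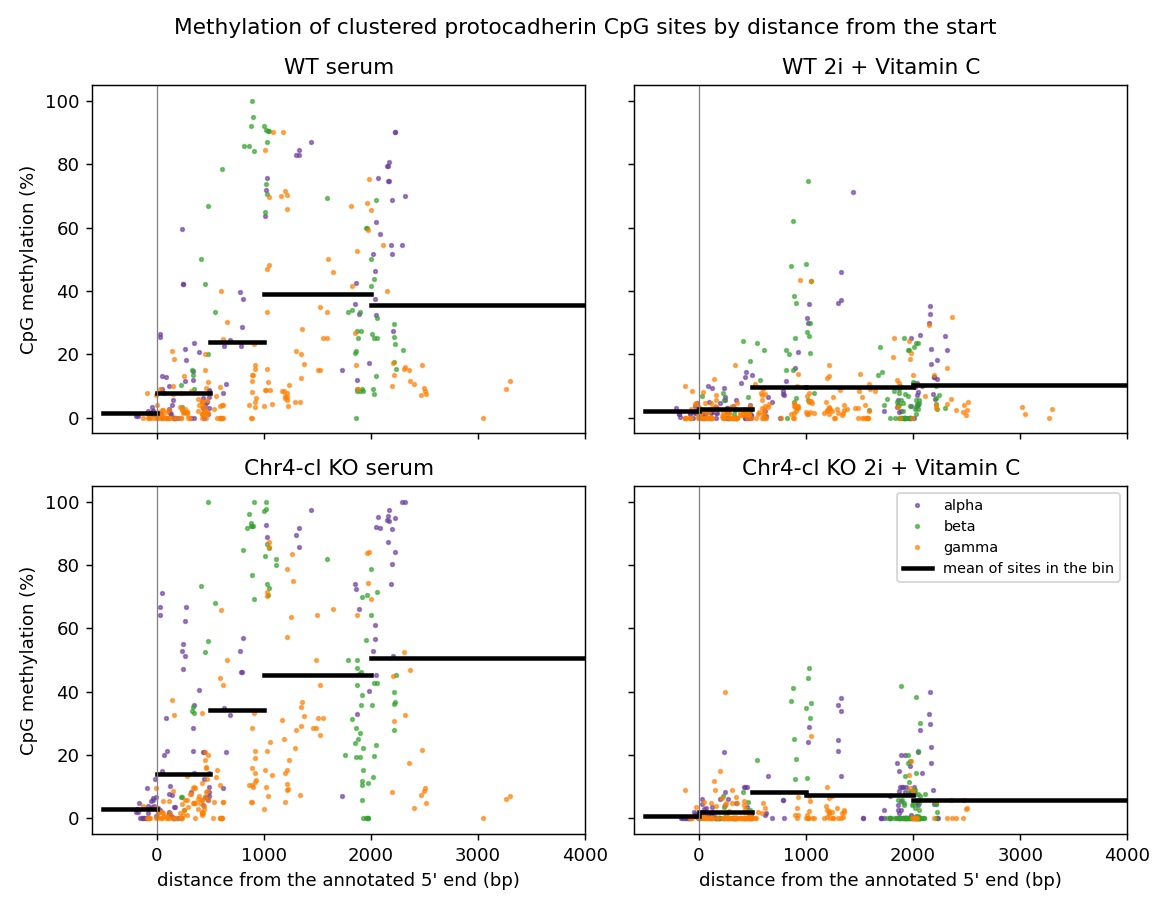
Methylation of each CpG site (%, y axis) against its distance from the nearest annotated 5' end (bp, x axis) in the 4 libraries, with points coloured by group and black bars giving the mean of all sites in each bin. Sites upstream of 0 lie near the bottom in every library, and the bars rise to 39.2% in WT serum and 9.71% in WT 2i + Vitamin C between 1000 and 2000 bp. The 5 sites beyond 4000 bp are not drawn but enter the mean of the last bin.

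Among the alpha starts, Pcdha11-204 is the first in the direction of transcription, at position 37089939, and belongs to the gene Pcdha11 (ENSMUSG00000007440.7). Its methylation was 56.5% ± 27.5 (SD over 17 sites) in WT serum, 85.9% ± 13.7 (17 sites) in Chr4-cl KO serum, 13.7% ± 11.2 (18 sites) in WT 2i + Vitamin C and 13.3% ± 12.0 (14 sites) in Chr4-cl KO 2i + Vitamin C. The neighbouring Pcdha11-209 had higher levels on 3 or 4 sites, with 84.3% (WT) and 91.0% (KO) in serum, compared with 47.6% (WT) and 32.2% (KO) in 2i + Vitamin C. Pcdha3 (ENSMUSG00000091969.1), the only other alpha gene with a model of its own, was low in all libraries, with 8.82% in WT serum, 18.5% in Chr4-cl KO serum, 4.27% in WT 2i + Vitamin C and 5.04% in Chr4-cl KO 2i + Vitamin C. In WT serum, the covered Pcdha3 sites lay between 324 and 490 bp from the start and those of Pcdha11-209 between 1300 and 1438 bp, and the alpha mean was 9.78% in the first 500 bp and 54.1% between 1000 and 2000 bp. Levels of different starts are therefore not levels at the same position of the exon, and how much of their differences goes with position was not tested.

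Pcdha11-208 stood at 42.5% in WT serum and 55.5% in Chr4-cl KO serum, and at 9.64% and 4.21% in 2i + Vitamin C. The last alpha starts, Pcdha11-201 and Pcdha11-202, are richer in CpGs, with 71 and 119 CpGs in the 2 kb around the start compared with 43 to 61 at the other alpha starts. Pcdha11-201 was at 14.1% in WT serum and 24.6% in Chr4-cl KO serum, and Pcdha11-202 at 13.6% and 15.0%. In 2i + Vitamin C these starts were between 2.77% and 7.20%.

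In the beta group, Pcdhb1 (ENSMUSG00000051663.3), the first gene of the group, had 40.6% at 10 sites in WT serum, 56.7% at 13 sites in Chr4-cl KO serum, 12.2% in WT 2i + Vitamin C and 5.22% in Chr4-cl KO 2i + Vitamin C. Pcdhb2 (ENSMUSG00000051599.3) was the highest member gene with at least 5 sites in WT serum and WT 2i + Vitamin C, at 71.4% and 22.0%. Over the 9 Pcdhb2 sites covered in both serum libraries, WT cells were at 69.0% and Chr4-cl KO cells at 78.0%, whereas over all its sites the Chr4-cl KO serum level was 56.0%, because that library covered 6 further sites of lower methylation. Pcdhb15 had 46.7% in WT serum and 58.1% in Chr4-cl KO serum and kept 18.4% and 17.0% in 2i + Vitamin C. Pcdhb22, the last gene of the group, was lower, with 20.9% (WT) and 19.4% (KO) in serum, compared with 3.39% (WT) and 5.29% (KO) in 2i + Vitamin C. At its 6 sites covered in both serum libraries, WT cells had 20.9% and Chr4-cl KO cells 22.7%.

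Pcdhb5 was the lowest beta gene with at least 5 sites in WT serum, at 19.1% (9 sites), and stood at 31.6% in Chr4-cl KO serum, 4.63% in WT 2i + Vitamin C and 2.28% in Chr4-cl KO 2i + Vitamin C. Pcdhb16, with 4 or 5 sites, had 35.4%, 64.3%, 8.89% and 5.55% in the same order. Pcdhb17 had 83.8% at 3 sites in WT serum and 55.2% at 12 sites in Chr4-cl KO serum, and the 3 shared sites were at 83.8% and 76.5%. The other beta genes covered in serum rested on 5 sites or fewer in each of these libraries.

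The 9 gamma starts all belong to the gene model Pcdhgc5 (ENSMUSG00000023036.7) and had lower levels, from 0.488% at Pcdhgc5-201 to 27.4% at Pcdhgc5-207 in WT serum and from 8.57% at Pcdhgc5-205 to 33.9% at Pcdhgc5-201 in Chr4-cl KO serum. The value of Pcdhgc5-201 in WT serum rests on 5 sites, which were at 0.488% in WT and 2.58% in Chr4-cl KO serum, and the 33.9% in Chr4-cl KO serum rests on 12 sites. Pcdhgc5-207, the first start of the group, had 10.6% in WT and 15.2% in Chr4-cl KO serum at the 10 sites covered in both. Pcdhgc5-204 was at 23.6% in WT serum and 23.9% in Chr4-cl KO serum, and Pcdhgc5-210 at 15.7% and 27.1%. In 2i + Vitamin C, all gamma starts were at 6.85% or less.

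Pcdhgc5-208 gave the most sites of any start in 3 of the 4 libraries (Pcdha11-202 had 36 against 33 in Chr4-cl KO 2i + Vitamin C), with 58 sites in WT serum and 119 CpGs in the 2 kb around its 5' end, and its ratio of observed to expected CpGs of 0.835 was the highest of the 41. Its mean methylation was 11.7% in WT serum, 10.2% in Chr4-cl KO serum, 4.10% in WT 2i + Vitamin C and 1.70% in Chr4-cl KO 2i + Vitamin C. At the 48 sites shared by both serum libraries WT cells had 6.51% and Chr4-cl KO cells 10.7%. Pcdhgc5-203, the last start of the group, had 14.6% (WT) and 23.7% (KO) in serum, compared with 6.85% (WT) and 3.56% (KO) in 2i + Vitamin C.

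**Figure D3:**
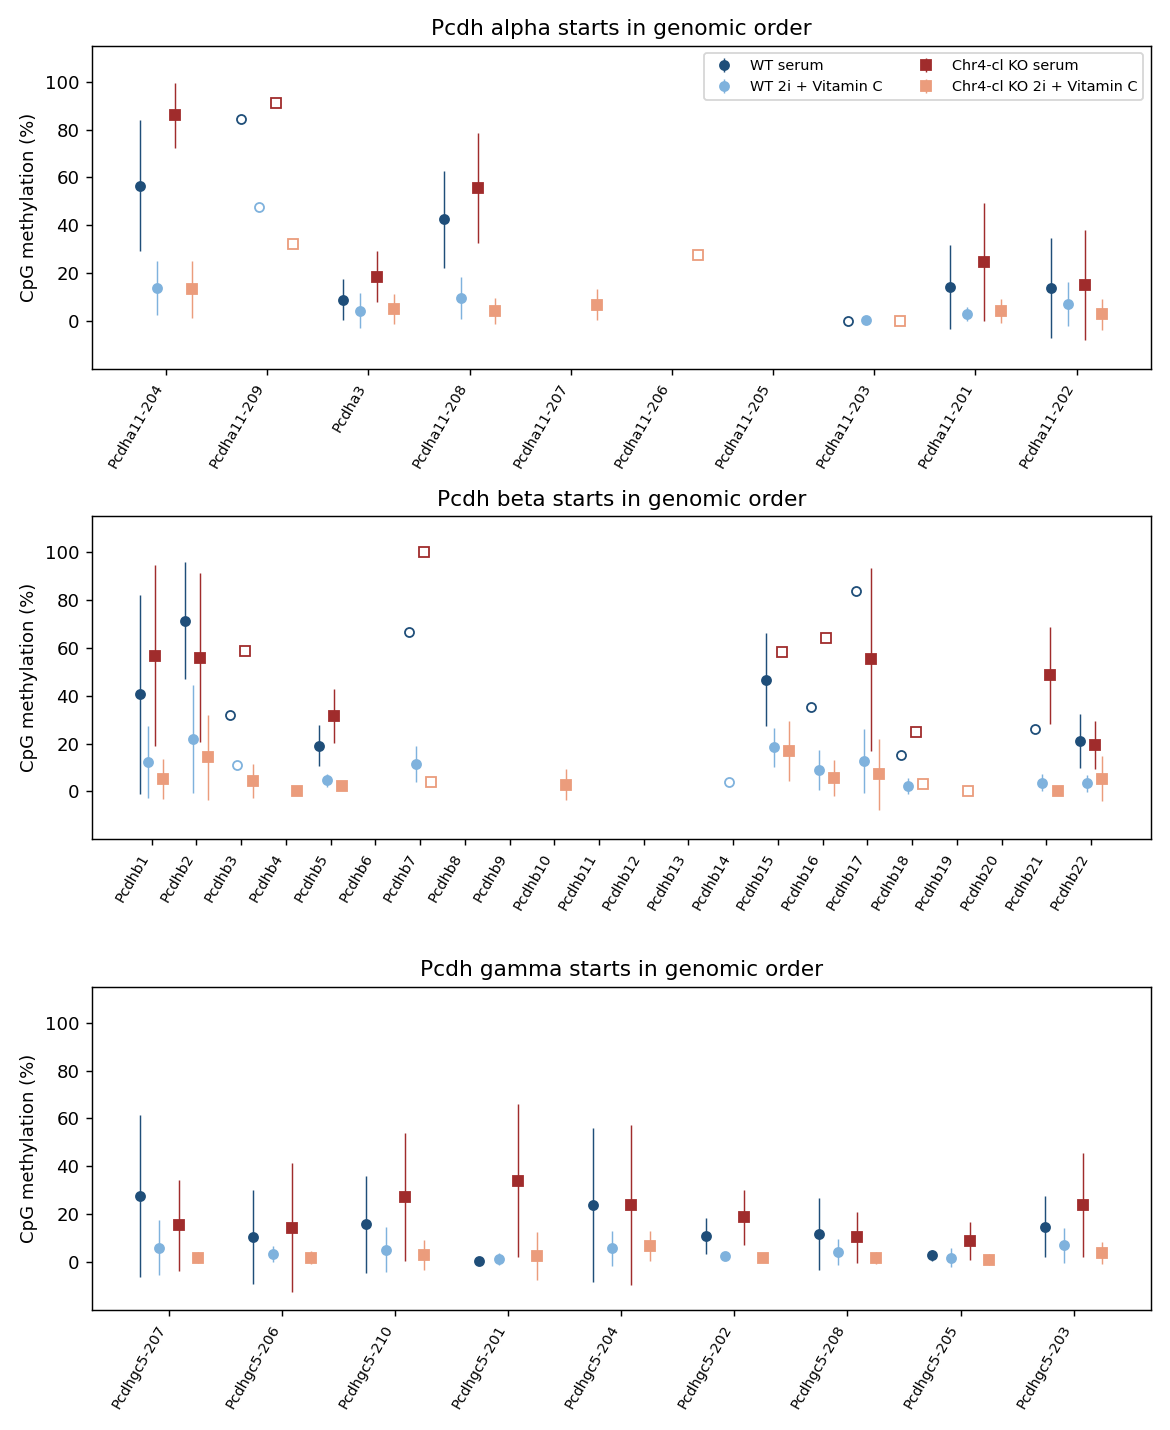
Mean CpG methylation (%, y axis) of each start in genomic order (x axis) for the alpha, beta and gamma groups, with circles for WT, squares for Chr4-cl KO, dark colours for serum and light colours for 2i + Vitamin C. Filled symbols are starts with at least 5 covered sites and show the SD over sites, open symbols have 1 to 4 sites, and a gap means no site with 10 reads. Pcdha11-204 reaches 85.9% in Chr4-cl KO serum, and the gamma starts stay at or below 33.9%.

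To compare the genotypes in serum, the 305 member sites with at least 10 reads in both libraries were used. The mean level in WT cells was 21.01% and that in Chr4-cl KO cells 30.1%, a difference of 9.10 percentage points (counting error 0.953, 95% half-width), with 231 sites higher and 53 lower in KO cells. The difference was 12.6 points at 97 alpha sites, 12.2 points at 55 beta sites and 5.79 points at 153 gamma sites. All sites of the table compared in the same way differed by 3.36 points, and within the sites of a mean level between 20 and 80%, the member sites differed by 19.0 points and all sites by 13.0. With reads pooled in place of averaging sites, the member difference was 5.80 points, while that of all sites was -0.998, so the sign of the difference across the table depends on the weighting and that of the members does not. All 3 groups were thus further apart between the serum libraries than the table as a whole when sites were averaged, which could not be tested with 1 library per condition.

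Single sites were compared by Fisher's exact test on their reads, adjusted after Benjamini-Hochberg over all sites of the table. A site was called gained or lost at an adjusted p below 0.05 together with a difference of at least 20 points, and the test compares the 2 libraries, not the genotypes. In serum, 22 of 305 member sites (7.21%) were called gained in Chr4-cl KO cells, compared with 1.82% of all sites, and 0 were called lost, compared with 0.115% of all sites. Of the gained sites, 15 lay in the first exons beyond 1 kb, and 7 were left when only sites within 1 kb of a start were used. The gained sites were 16.5% of the shared alpha sites (16), 1.82% of the beta sites (1) and 3.27% of the gamma sites (5). Median coverage in Chr4-cl KO serum was 88 reads over all covered alpha sites, 18 over beta and 47 over gamma sites. The test calls a given difference less readily at fewer reads, so these shares do not rank the groups. The mean differences of alpha and beta were close, at 12.6 and 12.2 points. How far the shares follow coverage was not tested. Of the gained sites, 8 lay at Pcdha11-204, without which 14 were left. In the class of sites with a mean level between 20 and 80%, 21 of 102 member sites (20.6%) and 10.98% of all sites were gained. Sites of 1 MspI fragment share reads and are not independent.

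At Pcdha11-204, gained sites lay in both covered stretches of the first exon. The 5 sites in the first 300 bp were between 11.4% and 26.5% in WT serum and between 62.2% and 71.1% in Chr4-cl KO serum. All 5 were called gained, but neighbouring sites among them share reads and are not separate measurements. In 2i + Vitamin C, these 5 sites were at 0.415% to 2.98% in WT and 0% to 6.06% in Chr4-cl KO cells. The 12 sites beyond 2000 bp had a mean of 72.2% in WT serum and 94.1% in Chr4-cl KO serum, and 3 of them were called gained. For example, at position 37089991, 52 bp from the start, 14 of 107 reads were methylated in WT serum (13.1%, Wilson 95% interval 7.96 to 20.8) and 32 of 45 in Chr4-cl KO serum (71.1%, 56.6 to 82.3), with an adjusted p of 1.13e-09 (Fisher's exact test). At position 37092023, 2084 bp from the start, 94 of 162 reads (58.0%, 50.3 to 65.4) and 166 of 181 reads (91.7%, 86.8 to 94.9) were methylated, with an adjusted p of 4.1e-11 (Fisher's exact test).

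Elsewhere, gained sites were found at Pcdha11-201 (4 sites), Pcdhgc5-203 (3), Pcdha11-202 and Pcdha11-208 (2 each), and Pcdhb5, Pcdhgc5-204 and Pcdhgc5-210 (1 each). All 18 starts with at least 5 sites covered in both serum libraries were higher in Chr4-cl KO cells, by 8.50 points on average (SD over starts 6.23), from 1.79 points at Pcdhb22 to 29.4 points at Pcdha11-204. After Pcdha11-204, the largest differences were 13.0 points at Pcdha11-208, 12.5 at Pcdhb5, 10.7 at Pcdhgc5-210 and 10.5 at Pcdha11-201. The SD over sites was larger than the difference at 10 of the 18 starts, Pcdha11-201 and Pcdhb1 included. By gene, 7 of 7 member genes with at least 5 shared sites were higher, as were 88.6% of all 14647 genes compared in this way. The median difference was 9.71 points for the members and 1.20 for all genes. No member gene as a whole reached 20 points, compared with 0.792% of all genes, and 6 beta genes with only 3 or 4 shared sites, Pcdhb3, Pcdhb15, Pcdhb16, Pcdhb17, Pcdhb18 and Pcdhb21, differed by 27.1, 5.41, 28.9, -7.36, 18.2 and 22.8 points.

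In 2i + Vitamin C, 271 member sites could be compared between the genotypes. The mean level in WT cells was 6.95% and that in Chr4-cl KO cells 5.37%, a difference of -1.58 points (counting error 0.795), with 162 sites lower and 76 higher in KO cells. The differences were -0.651 points in alpha, -2.89 in beta and -1.52 in gamma, and all sites of the table differed by -1.73 points. Of 20 starts with at least 5 shared sites, 15 were lower in Chr4-cl KO cells, and Pcdhb2 with -6.39 and Pcdhb1 with -5.99 points were the lowest. At Pcdha11-204, WT cells had 13.0% and Chr4-cl KO cells 15.5%, so that the 29.4 points by which it differed in serum were 2.44 points here. Of 10 member genes, 7 were lower, as were 85.4% of all genes, and 0 reached 20 points, compared with 0.14% of all genes.

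**Figure D4:**
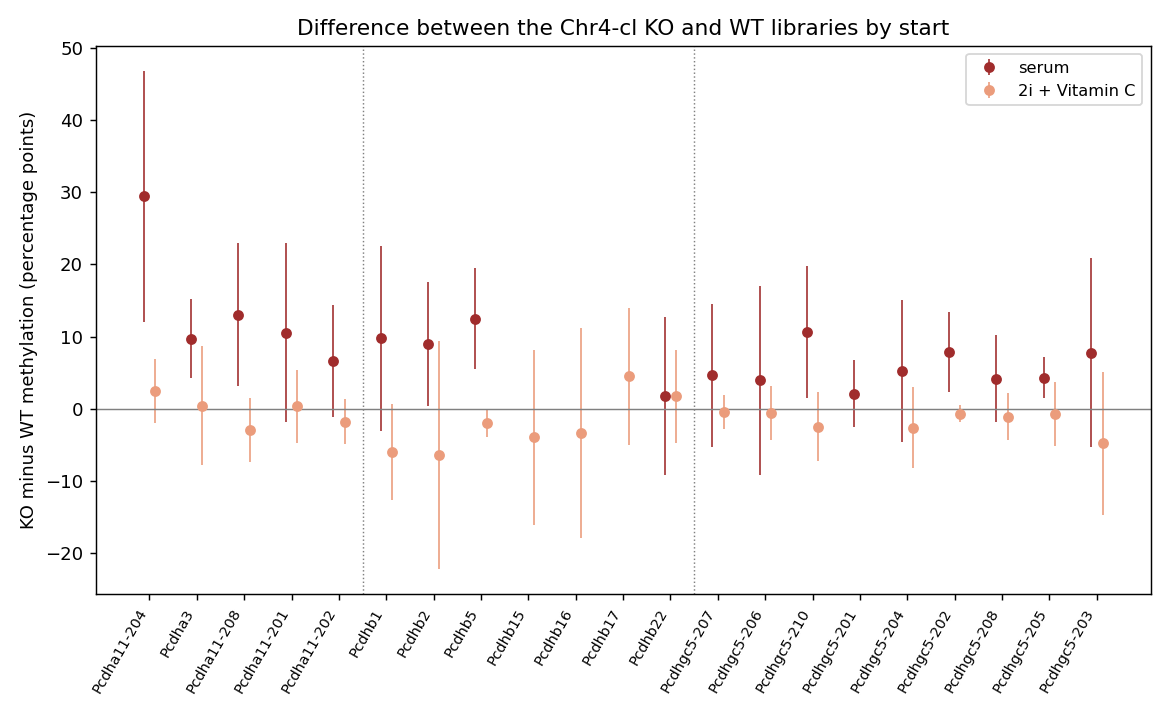
Difference in mean methylation between Chr4-cl KO and WT cells (percentage points, y axis) for each start with at least 5 sites covered in both libraries (x axis, genomic order, dotted lines between alpha, beta and gamma), in serum (dark) and 2i + Vitamin C (light), with bars giving the SD over sites. All 18 serum points lie above 0, from 1.79 to 29.4, and 15 of 20 points in 2i + Vitamin C lie below it.

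In this medium, 2 of 271 member sites (0.738%) were called lost, compared with 0.361% of all sites, and 0 were called gained, compared with 0.0897%. In Pcdhb2, position 37455512, 1018 bp from the start, was methylated in 94 of 126 reads in WT cells (74.6%, Wilson 95% interval 66.4 to 81.4) and in 28 of 63 in Chr4-cl KO cells (44.4%, 32.8 to 56.7), with an adjusted p of 0.0134 (Fisher's exact test). In serum this site was at 90.9% and 97.7%. The other lost site, position 37981673 in the first exon of Pcdhgc5-203, was at 31.7% of 123 reads in WT and 0% of 34 reads in Chr4-cl KO cells (upper limit 10.2), with an adjusted p of 0.00464 (Fisher's exact test). In serum this site differed in the opposite direction, with 11.6% of 95 reads in WT and 46.8% of 94 reads in Chr4-cl KO cells. With each site thinned to the smaller of its coverages, neither loss was called.

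Member sites were less methylated in 2i + Vitamin C than in serum in both genotypes. In WT cells, 327 sites covered in both media were at 22.3% in serum and 7.48% in 2i + Vitamin C, a difference of -14.9 points, and 253 sites were lower and 59 higher. In Chr4-cl KO cells, 259 sites were at 27.9% and 5.002%, a difference of -22.9 points, and 219 were lower and 15 higher. Over all sites of the table, the differences were -17.3 points in WT and -18.3 points in Chr4-cl KO cells. The 2 comparisons share no library, but their site sets differ, and over the 227 member sites covered in all 4 libraries the levels were 21.6% and 7.45% in WT and 30.4% and 5.30% in Chr4-cl KO cells.

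Over all sites of a group, beta differed most between the media. Beta sites differed by -26.9 points in WT and by -35.4 points in Chr4-cl KO cells, alpha sites by -17.7 and -28.2 points, and gamma sites by -8.93 and -12.9 points. In the first exons beyond 1 kb the order of alpha and beta was the other way round, with -40.2 and -58.9 points in alpha and -25.4 and -32.4 points in beta. In WT cells, 85 of 327 sites (26.0%) were called lost, compared with 31.8% of all sites, with 36 in alpha, 24 in beta and 25 in gamma, and in Chr4-cl KO cells, 88 of 259 (34.0%), compared with 28.6% of all sites, with 37, 30 and 21. Among sites with a mean level of 20 to 80% over both media, 83.3% of 78 member sites and 85.3% of all sites were lost in WT cells, and 91.0% of 78 member sites and 88.8% of all sites in Chr4-cl KO cells. The share of lost members was thus near that of other sites of the same level.

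By start, 18 of 19 starts with at least 5 shared sites were lower in 2i + Vitamin C in WT cells and 18 of 18 in Chr4-cl KO cells. The exception in WT cells was Pcdhgc5-201, which was at 0.488% in serum and 0.55% in 2i + Vitamin C over 5 sites. Counted by gene, 8 of 8 members were lower in each genotype. Of all genes compared in this way, 48.4% were lower in WT cells and 92.2% in Chr4-cl KO cells. Pcdha11-204 differed by -42.0 points in WT cells, where 13 of 17 sites were called lost, and by -67.0 points in Chr4-cl KO cells, where all 12 were. Pcdhb2 differed by -38.0 and -39.9 points in WT and KO cells, Pcdha11-208 by -32.8 and -47.8 points and Pcdhb1 by -28.4 and -44.7 points. Pcdhgc5-206 had the smallest difference in Chr4-cl KO cells, with 2.12% and 1.78% over 13 sites.

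By gene, Pcdhb1, Pcdhb2 and Pcdhb15 were lower by at least 20 points in WT cells, 3 of 8 member genes compared with 8.98% of all genes. In Chr4-cl KO cells these were Pcdha11, Pcdhb1, Pcdhb2 and Pcdhb5, 4 of 8 compared with 8.36% of all genes. The median differences were -18.3 and -22.8 points for the members and 0.0597 and -1.58 for all genes, most of which were nearly unmethylated in serum. Only 1 member site was called gained in 2i + Vitamin C, the Pcdhgc5-203 site at 37981673 in WT cells, 0.306% of the member sites compared with 0.144% of all sites. In Chr4-cl KO cells no member site was called gained, compared with 0.0297% of all sites.

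Other genes set the scale of these levels. Over annotated genes with at least 5 covered sites, the median was 1.93% in WT serum and 3.06% in Chr4-cl KO serum, compared with 24.3% for 8 and 36.9% for 9 clustered protocadherin genes. At least 20% methylation was found in 5 of the 8 in WT serum (62.5%) and in 13.7% of all genes. Of 14 non-clustered protocadherins, which are separate genes outside the cluster, 11 were covered in serum, and their median was 7.54% in WT serum and 11.7% in Chr4-cl KO serum, with Pcdh12 and Pcdh11x highest in WT serum at 87.5% and 80.6%. Among 18 other protein-coding genes within 200 kb of the cluster or inside it, 11 were covered, with a median of 0.897% in WT serum and 2.47% in Chr4-cl KO serum.

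A list of 22 genes for DNA methylation, cohesin, CTCF and chromatin repression (such as Setdb1, Trim28 and Rest), chosen as regulators of clustered protocadherin promoters, had a median of 1.80% in WT serum and 2.11% in Chr4-cl KO serum over its 21 covered genes. The highest in WT serum was Uhrf1, which recruits the maintenance methyltransferase, at 23.5%. Tet1, an enzyme that oxidises methylcytosine, was at 16.4% in WT and 40.1% in Chr4-cl KO serum over the same 10 sites. Dnmt3a, a de novo methyltransferase, was at 11.6% and 23.0% over all its sites, but at 16.4% and 17.6% over the 55 shared sites. These genes were named after their values were seen, and the methylation of their windows gives no expression level.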

How the data were processed

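Methylation was profiled by RRBS-seq in 4 mouse ES cell libraries, with 1 library per condition. The authors cut genomic DNA with MspI, trimmed the reads with Trim Galore (including bases at the read ends), mapped them to mm9 with Bismark and joined both strands of each CpG dyad with a custom script; tool versions are not given in the sources used here. They deposited, for each dyad, the count of reads and the count of methylated reads, not normalized for depth, and the methylated fraction, which is the ratio of these counts. The files of WT serum and Chr4-cl KO 2i + Vitamin C hold a pair of joined tables each, and positions listed more than once in a file were left out (332 and 830 rows).

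Methylation was computed as methylated over all reads at sites with at least 10 reads, in percent, and averaged with each site counted once. Genes, 5' ends and first exons were taken from GENCODE vM1 (mm9). Transcripts of a gene with 5' ends within 1 kb were joined into 1 start, and a site near several starts was assigned to the nearest. Genes planned to be named as C-type (other than Pcdhgc5) have no gene model of their own in vM1 and were not described by name. Single sites were compared between libraries by Fisher's exact test (two-sided) with Benjamini-Hochberg adjustment over all sites of the table, and called at an adjusted p under 0.05 and a difference of at least 20 percentage points. Genes were compared by size only, at 20 points over at least 5 shared sites. Means over members have no test. Wilson intervals and half-widths cover the counting of reads only, and PCR copies were not removed by molecular identifiers.

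The genes named were the first and last of each group, the 3 highest and 3 lowest in each library and the 3 largest differences in each comparison among genes with at least 5 sites, and single starts and sites were chosen after their values were seen. The members and lists were chosen with earlier results of these data known. Classes of mean level and start levels were added after seeing the data. Alternatives covered the coverage minimum, the sites compared, weighting, windows, transcripts, thresholds and thinned reads. The site test was tested on simulated data. Sequences of members are not reported here. Tests used scipy 1.17.1 and numba 0.67.0, tables pandas 2.3.3 and numpy 2.4.6, and figures matplotlib 3.10.9, all under Python 3.11.15.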

Additional observations from a re-analysis of the deposited data

Results flagged for a closer look

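In each of the 3 groups, the mean of Chr4-cl KO cells was above that of WT cells in serum and below it in 2i + Vitamin C. In alpha, KO cells differed from WT cells by 12.6 percentage points in serum and by -0.651 points in 2i + Vitamin C. The alpha difference in 2i + Vitamin C was smaller than the counting error of 0.795 points. That error was computed over all 271 member sites and not for single groups. In that medium 3 of 5 alpha starts were higher in KO cells, so a reversal is not shown for alpha. The differences in serum and 2i + Vitamin C were 12.2 and -2.89 points in beta and 5.79 and -1.52 points in gamma, where a reversal was not tested either. This was picked out because the mean difference of every group had the opposite sign in the media, and the difference between the media was not tested, since each condition is 1 library. Over all sites of the table, the differences were 3.36 and -1.73 points when sites were averaged, and -0.998 and 0.179 points when reads were pooled. The WT serum and Chr4-cl KO 2i + Vitamin C files are those with joined tables, and without the second tables, of which only 59 and 54 sites reached 10 reads, the differences over all member sites stayed at 9.10 and -1.58 points. Whether these files differ in another way was not tested.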

How the results depend on the processing

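Of 232 recomputed values, 168 stayed within counting error of the reported value (or within 1.5 times for counts), 64 moved beyond it and no direction was reversed. The 168 include settings that returned every value unchanged and so say nothing about stability. These were a window of 500 bp with the first exon, protein-coding transcripts only, and leaving out the second tables or the top 0.1% of coverage. No paired analysis was possible because each condition is 1 library without a replicate number. Limits are set by depth (a median of 21 reads at member sites in Chr4-cl KO 2i + Vitamin C) and by the shared sequence of beta genes. Unless stated, values follow the order WT serum, WT 2i + Vitamin C, Chr4-cl KO serum, Chr4-cl KO 2i + Vitamin C, and the cause of each move was not tested.

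Within 1 kb of the starts alone, levels were 10.96%, 4.41%, 17.4% and 2.79%, the KO minus WT difference in serum was 6.66 points, the media differed by -6.72 points in WT and -13.7 points in KO cells, 7 sites were gained in KO serum, 22 (WT) and 31 (KO) were lost in 2i + Vitamin C, 0 were lost between genotypes in 2i + Vitamin C and 1 gene was lower in KO cells between media. The first exons alone gave 24.3% in WT serum and 32.4% in KO serum, and media differences of -16.0 and -24.8 points. Pooled reads gave 18.6%, 5.79%, 24.2% and 4.22%, with differences of 5.80 (serum), -12.7 and -20.05 points (media). The mean of gene means gave 31.2%, 8.94%, 37.8% and 5.58%, with media differences of -20.3 and -25.5 points. Sites covered in all 4 libraries gave 21.6% in WT serum, 7.45% in WT 2i + Vitamin C and -25.1 points between media in KO cells. A minimum of 20 reads gave 19.8% in WT serum, 27.4% in KO serum, 5.49% in KO 2i + Vitamin C, -12.8 points between media in WT cells and 1 lower gene there. A minimum of 5 reads gave 2 higher genes in KO serum and 8 lower genes between media in each genotype.

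Sites gained in KO serum numbered 39 at 10 points, 13 at 30 points and 43 without the test, and sites lost in KO 2i + Vitamin C 5 without the test and 0 after thinning. Genes called (KO serum, then WT and KO between media) numbered 2, 6 and 8 at 10 points, 3, 7 and 8 with at least 3 sites, and 1 (WT) and 2 (KO) between media at 30 points, with 2 in KO cells at a minimum of 10 sites. Chosen after seeing the data, leaving out Pcdha11-204 gave 20.9% in WT serum, 27.1% in KO serum, 7.90 points and 14 gained sites in serum, and -13.4 and -20.8 points between media. Leaving out sites with exact copies in the cluster, also chosen after seeing the data, gave 21.8% in WT serum, 28.6% in KO serum, and -14.0 and -21.9 points between media.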
